A study of Mus musculus with 12 samples.

Results

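Of 37310 genes in the count data, 10 are described here, all from the machinery that builds and turns over actin filaments. They were chosen by name, with no threshold on a measured value: the cytoplasmic actins Actb and Actg1, the cofilins Cfl1 and Cfl2, the profilins Pfn1 and Pfn2, the beta-thymosins Tmsb4x and Tmsb10, the Arp2/3 subunit Arpc2 and drebrin, Dbn1. All 10 were found by their Gencode vM1 identifiers and all 10 passed the filter on low counts in every comparison.

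All 10 are annotated as protein coding in mm9. Actb (ENSMUSG00000029580.7) lies at chr5:143664794-143668433 and Actg1 (ENSMUSG00000062825.8) at chr11:120207004-120209856, both on the minus strand. Cfl1 lies at chr19:5490485-5494029 on the plus strand and Cfl2 at chr12:55959804-55963864 on the minus strand. Pfn1 lies at chr11:70465352-70468146 and Pfn2 at chr3:57645817-57651486, both on the minus strand. The thymosin genes, both on the minus strand, are at chrX:163645025-163647247 (Tmsb4x) and chr6:72907341-72908742 (Tmsb10). Arpc2 lies at chr1:74283071-74314783 on the plus strand and Dbn1 at chr13:55574787-55589529 on the minus strand. Counts are reads on the exons of each gene, UTRs included.

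The libraries come from ventral hippocampus (vHPC) of C57BL/6 mice that carried a Cre-dependent eGFP-L10a gene at Rosa26, so that cells with Cre had a GFP tag on their ribosomes. All mice, WT and KO, received a retrograde HSV-Cre vector in nucleus accumbens (NAc) and were taken 3 weeks later. KO mice were FosB fl/fl, so that Cre removes the floxed exons of FosB in the cells it reaches, whereas WT mice had no floxed FosB. Tissue of vHPC was taken with biopsy punches guided by fluorescence. Mice were pooled (3 a pool in the source label, 3 to 4 in the protocol), with 3 pools per genotype. Each pool gave a library of RNA pulled down with GFP-tagged ribosomes (translating ribosome affinity purification, TRAP). It also gave a library of the tissue without pulldown (input). The labels mark input libraries by that word, and libraries without it were read as TRAP. Pool numbers are those of the titles, which run from 1 to 3 for WT mice and from 2 to 4 for KO mice. The vector (hEf1α promoter) enters neurons through their axons in the injected site, so the tagged vHPC cells project to NAc by design, while input also held cells without Cre.

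Actin exists as single subunits and as filaments, and the balance between them shapes growth cones, axons and the dendritic spines that carry excitatory synapses. Cofilins sever and dismantle filaments, profilins feed subunits to growing ends, beta-thymosins hold subunits in reserve, the Arp2/3 complex starts new branches, and drebrin lines filaments in spines. Actb is also widely used as a reference gene for mRNA measurements, on the assumption that its level differs little between samples.

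Depth was 3416030 to 5614089 gene counts a library. Levels are given as CPM, the counts of a gene relative to the TMM-scaled library total, and 3 counts stood at 0.534 to 0.878 CPM before that scaling. The lowest count of any of the 10 genes in any library was 100, for Cfl2, so none was near that floor. Fosb, whose floxed exons Cre removes, was at 32 to 45.2 CPM in WT TRAP and 18.8 to 29.3 CPM in KO TRAP. In input it was at 22.2 to 30.2 CPM in WT and 14.8 to 17 CPM in KO. The genotypes did not overlap in either fraction, and counts on Fosb remained in all KO libraries. These counts cover all exons of the gene, those outside the floxed part included. Input library 1 of WT had counts on 15678 genes, against 17255 to 18090 in the other input libraries. TRAP libraries held less of the markers of other cells: the summed level of 10 microglia markers was 5.88 to 23.3 CPM in TRAP and 106 to 219 CPM in input, and that of 8 astrocyte markers 254 to 334 CPM in TRAP and 1578 to 1977 CPM in input. In each of these 2 lists, and in 8 oligodendrocyte markers, every marker was lower in TRAP at an adjusted p under 0.05. Of 8 glutamate neuron markers, 6 were higher in TRAP, with a median log2 fold change of 0.30. Of 8 GABA neuron markers 7 were lower, and library 2 of KO TRAP stood apart with a summed level of 595 CPM, against 159 to 390.3 CPM in the other TRAP libraries. In tissue samples such as input, fewer cells of a type and less RNA per cell cannot be told apart.

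The sequences of the related genes decide which reads can be assigned to one of them, so the start of the coding sequence is shown for the actins and the thymosins, the pairs with the most copies and with the shortest coding sequences. Sequences are from the Gencode vM1 transcripts on mm9, 5′ to 3′, with capitals at the bases that differ within the pair. For Actb these are coding bases 1 to 120 in exon 2 (chr5:143667246-143667365, minus strand), and for Actg1 the same bases in exon 2 (chr11:120209286-120209405, minus strand).
Actb: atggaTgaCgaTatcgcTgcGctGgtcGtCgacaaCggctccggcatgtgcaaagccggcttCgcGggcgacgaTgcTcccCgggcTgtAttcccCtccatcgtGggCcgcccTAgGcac
Actg1: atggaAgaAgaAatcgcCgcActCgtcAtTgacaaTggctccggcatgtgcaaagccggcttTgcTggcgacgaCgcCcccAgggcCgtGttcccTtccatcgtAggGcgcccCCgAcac
The actins differ at 22 of these 120 bases, and over the whole coding sequence 1000 of 1128 bases are identical (88.7%).

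The thymosins are very short proteins. Coding bases 1 to 120 lie in exons 2 and 3 of Tmsb4x (chrX:163645869-163645968 and chrX:163645448-163645467, minus strand) and in exons 3 and 4 of Tmsb10 (chr6:72907907-72908006 and chr6:72907627-72907646, minus strand).
Tmsb4x: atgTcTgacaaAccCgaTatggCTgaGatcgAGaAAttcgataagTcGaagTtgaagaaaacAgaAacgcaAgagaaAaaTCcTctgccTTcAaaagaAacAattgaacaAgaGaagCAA
Tmsb10: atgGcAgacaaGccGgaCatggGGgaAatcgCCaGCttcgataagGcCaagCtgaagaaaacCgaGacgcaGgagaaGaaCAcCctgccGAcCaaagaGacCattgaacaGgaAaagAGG
They differ at 32 of these 120 bases, and 95 of 135 coding bases are identical (70.4%). Of the other pairs, Cfl1 and Cfl2 shared 358 of 501 aligned coding bases (71.5%) and Pfn1 and Pfn2 shared 260 of 423 (61.5%).

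Reads with more than 1 alignment are listed apart from the gene counts, so copies of a gene can lower its count. For each gene, all stretches of 75 bases of its longest coding transcript were looked up in mm9 with up to 2 mismatches. Another place was found for 92.4% of the Actg1 stretches, 81.4% of Cfl1, 55.2% of Tmsb10, 32.3% of Actb, 18.7% of Arpc2 and 1.78% of Pfn1, and for none of Cfl2, Pfn2, Tmsb4x and Dbn1. Identical copies covered 89.4% of the Actg1 stretches but 38.0% of Tmsb10, 11.3% of Cfl1 and 3.58% of Actb. For Actg1, the pseudogene Gm12715 (chr4:103235929-103237833) held places of 88.6% of the stretches, Gm8399 on chromosome 13 of 51.7%, and sequence without an annotated exon of 78.3%. For Tmsb10 the pseudogenes Gm9844 on chromosome 7 and Gm3788 on chromosome 3 held most places, for Cfl1 Gm6180, which is annotated as protein coding, and for Actb Lrrc58 on chromosome 16 with the pseudogene Gm15725, which lies within it. Only 18 Actb stretches (0.975%) had a place in Actg1. The counts of Actg1, Cfl1 and Tmsb10 are therefore less certain as levels than those of the other genes. Annotated pseudogenes with such places received 7.44% to 14.5% of the counts on Actg1 and its pseudogenes together and 16.7% to 36.6% for Tmsb10. For Actb the share was 0.708% to 2.85%, mostly from pseudogenes that Actg1 matches along far more stretches, and Gm15725 itself had 0 counts. Of exons annotated to other genes, only those of AL669855.1, a miRNA inside Actg1 without counts, overlapped exons of the 10 genes.

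Actb was the most abundant of the 10 genes by counts and accounted for 0.200% to 0.307% of all gene counts in a library. Together the 10 genes took 0.625% to 0.742% of the counts in TRAP libraries and 0.491% to 0.564% in input libraries, without overlap. To compare genes, CPM was divided by the length of all annotated exons of the gene in kilobases. By CPM per kilobase, Actb (1068 ± 85.9 in WT TRAP, SD, n = 3), Cfl1 (1056 ± 98.4) and Tmsb4x (783 ± 218) made up an upper tier in each of the 4 groups. A middle tier held Arpc2, Actg1, Pfn2 and Pfn1, between 142 and 181 CPM per kilobase in WT TRAP. Below it were Dbn1 (65.7 ± 7.94) and Tmsb10 (61.1 ± 4.03), and Cfl2 was lowest (12.7 ± 1.15) in all groups, with no overlap with the next gene. Neighbours within a tier mostly overlapped: in WT TRAP, Actb and Cfl1, Cfl1 and Tmsb4x, Actg1 and Pfn2, Pfn2 and Pfn1, and Dbn1 and Tmsb10 were not separated by their libraries. Actg1 changed its place between fractions, ranking the fifth in TRAP and the seventh in input in both genotypes. With coding length in place of exon length, Tmsb4x, whose coding sequence is very short, ranked first in all groups, so the order depends on the length used.

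**Figure D1:**
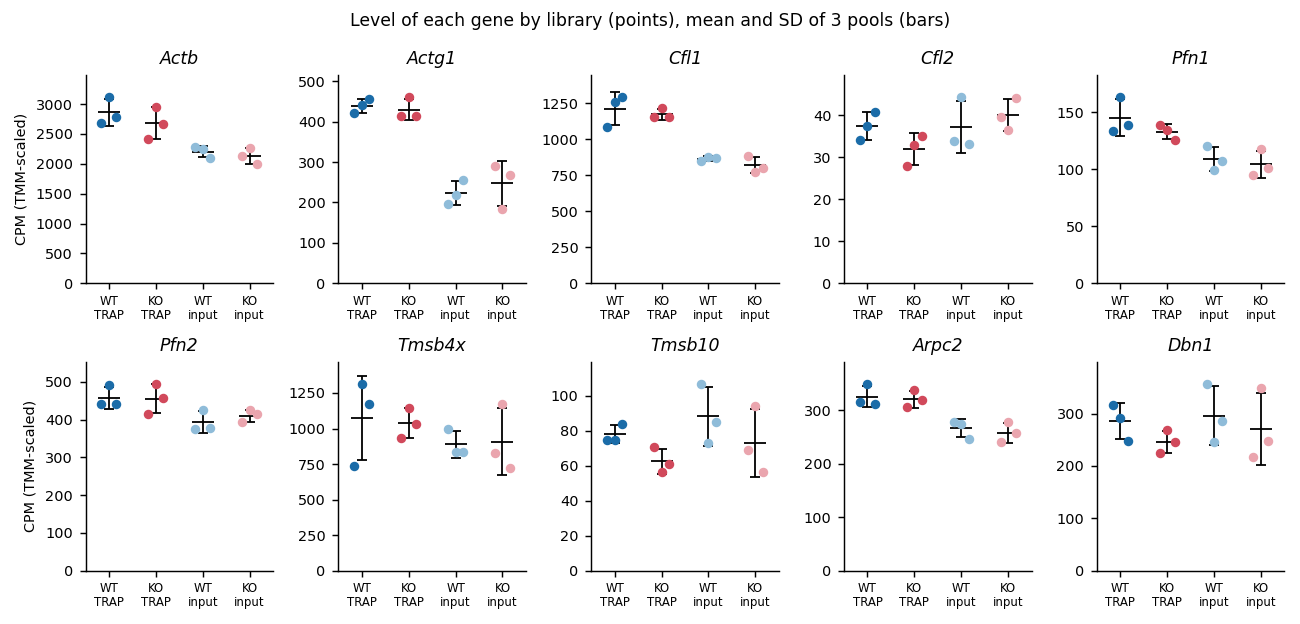
CPM of each of the 10 genes in every library (y axis from 0, linear), by group on the x axis, with points for the 3 pools and bars for mean and SD. TRAP points lie above all input points for Actb, Actg1, Cfl1, Pfn1 and Arpc2, while groups overlap for Tmsb4x and Dbn1. For Cfl2, TRAP and input overlap in WT, and KO TRAP lies below KO input.

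The first question was whether RNA of the filament machinery was at the same level on the tagged ribosomes as in the tissue. Over both genotypes 6 of the 10 genes were higher in TRAP and none was lower (quasi-likelihood test in edgeR, Benjamini-Hochberg adjusted over all genes). Of all 13214 genes tested, 42.8% were called and 20.1% were called higher, and among the 5213 genes whose mean CPM was at least that of Cfl2, 38.2% were called higher. The median log2 fold change was 0.26 for the 10 genes, −0.01 for all genes and 0.14 for the 5213 genes. The genes called were both actins, Cfl1, both profilins and Arpc2.

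Actg1, the gamma isoform of cytoplasmic actin, had the largest difference of the 10 genes. It was at 422, 441 and 456 CPM in WT TRAP libraries 1 to 3 and at 195, 219 and 256 CPM in WT input libraries 1 to 3. In KO TRAP libraries 2 to 4 it was at 415, 461 and 414 CPM and in KO input libraries 2 to 4 at 289, 185 and 269 CPM. All 6 TRAP libraries were above all 6 input libraries. The log2 fold change was 0.88 (SE 0.09, adjusted p = 1.61e-08 by edgeR's quasi-likelihood test). By pool the log2 difference ran from 0.52 to 1.32, higher in TRAP in 6 of 6 pools, for which an exact sign-flip test over pools gave the smallest p it allows, 0.031. With the counts of its pseudogenes added, a choice made after seeing the data, Actg1 was still called. The pseudogene Gm12715 itself had 157 to 239 counts in TRAP libraries and 31 to 95 in input libraries.

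Actb, the beta isoform, had a smaller difference. WT TRAP libraries were at 2680.4, 3121 and 2785 CPM and WT input libraries at 2278, 2241 and 2095 CPM. KO TRAP libraries were at 2416, 2953 and 2673 CPM and KO input libraries at 2123, 2268 and 2001 CPM. TRAP and input did not overlap here either, although the lowest TRAP library, KO 2, was close to the highest input library, WT 1. The fold was 1.28 in TRAP against input (log2 0.35, SE 0.06, adjusted p = 1.19e-05, edgeR). Among the genes tested, this log2 fold change was at the 79.7th percentile and that of Actg1 at the 98.3rd.

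Cfl1, the main cofilin of non-muscle cells, was at 1083, 1260.2 and 1293 CPM in TRAP of WT and at 848, 878 and 871 CPM in WT input. In KO it was at 1150.1, 1218 and 1151 CPM in TRAP and 880.4, 774 and 797 CPM in input. The fractions did not overlap, and the input values of WT lay within a narrow band (CV 1.77%). The log2 fold change was 0.50 (SE 0.06, adjusted p = 5.09e-08, edgeR). Cfl2, the cofilin best known from muscle, was at 34.1, 37.4 and 40.9 CPM in TRAP of WT and 33.9, 44.4 and 33.3 CPM in WT input. In KO it was at 27.9, 32.9 and 35.2 CPM in TRAP and 39.5, 36.6 and 44.2 CPM in input. The fractions overlapped in WT but not in KO, and the log2 fold change over both genotypes was −0.16 (SE 0.13, adjusted p = 0.324, edgeR), which did not pass the threshold.

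Pfn1, the ubiquitous profilin, was at 134, 164 and 139 CPM in WT TRAP against 120.1, 99.1 and 107 CPM in WT input, and at 139, 134 and 126 CPM in KO TRAP against 95.1, 118 and 101 CPM in KO input. TRAP libraries were all above input libraries, by 0.38 on the log2 scale (SE 0.08, adjusted p = 0.000472, edgeR). Pfn2, the profilin enriched in brain, was at 441, 492 and 440.4 CPM in TRAP of WT and 375, 426 and 378 CPM in WT input. In KO it was at 415, 494 and 457 CPM in TRAP and 393, 424 and 414 CPM in input. The KO fractions overlapped, yet each pool was higher in TRAP than in its own input, by 0.08 to 0.24 on the log2 scale. The log2 fold change was 0.18 (SE 0.06, adjusted p = 0.0220, edgeR), and the call was lost without WT pool 3 (adjusted p = 0.0588). Arpc2, the large structural subunit of Arp2/3, was at 305 to 348 CPM in TRAP and 239.7 to 278 CPM in input. Its log2 fold change was 0.30 (SE 0.07, adjusted p = 0.000517, edgeR), with a range by pool of 0.18 to 0.35, among the narrowest of the 10 genes.

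The other 3 genes gave no call. Tmsb4x, the main actin-sequestering thymosin, had 739, 1312 and 1171 CPM in WT TRAP libraries 1 to 3 and 999, 837 and 833 CPM in their input. The KO TRAP libraries had 933, 1146 and 1032 CPM and the KO input libraries 827, 1171 and 724 CPM. Its pools went in both directions, from a log2 difference of −0.43 in WT pool 1 to 0.65 in WT pool 2, and the log2 fold change was 0.23 (SE 0.16, adjusted p = 0.279, edgeR). Tmsb4x is also abundant in microglia, whose markers were lower in TRAP in all libraries, and their part in its values was not tested. Over both genotypes it ran from 0.14 without WT pool 2 to 0.35 without WT pool 1, with no call. Within WT, Tmsb4x was called higher in TRAP without pool 1 (log2 fold change 0.58) and also with all pools and no filter on low counts (0.28), and without KO pool 3 it was called higher within KO (0.32).

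Tmsb10, the thymosin with higher levels in young neurons, was at 56.3 to 83.9 CPM in TRAP and 56.2 to 107 CPM in input, and its log2 fold change was −0.20 (SE 0.11, adjusted p = 0.161, edgeR). Dbn1 was at 225 to 316 CPM in TRAP and 217 to 356 CPM in input, with a log2 fold change of −0.10 (SE 0.11, adjusted p = 0.523, edgeR). For both genes the fractions overlapped widely, and pools differed in direction. Without KO pool 3 the log2 fold changes were −0.067 for Tmsb10 and −0.011 for Dbn1, and without WT pool 1 that of Tmsb10 was −0.12.

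**Figure D2:**
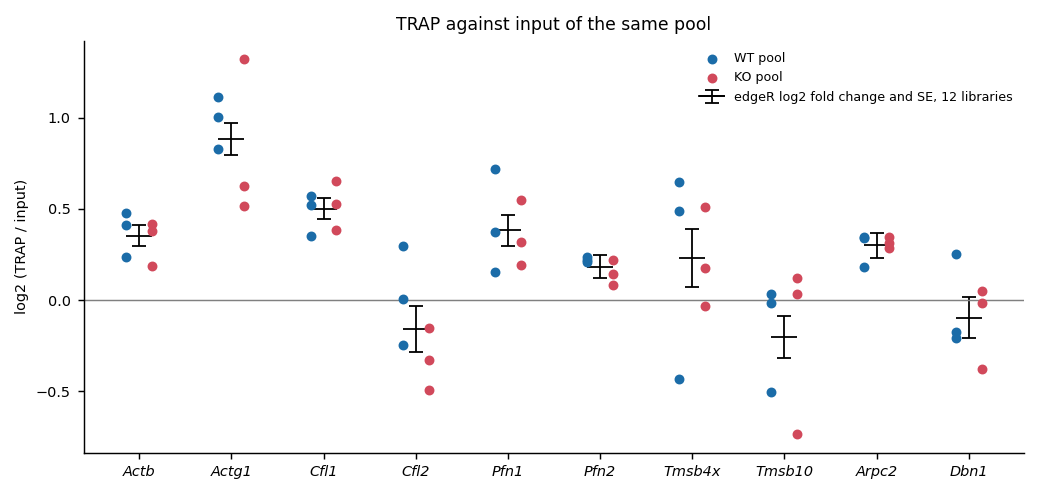
Difference of log2(CPM + 0.5) between the TRAP and the input library of the same pool for each gene (points, WT blue and KO red), with the edgeR log2 fold change over 12 libraries and its SE (black). All 6 pools lie above 0 for Actb, Actg1, Cfl1, Pfn1, Pfn2 and Arpc2, and pools lie on both sides of 0 for Cfl2, Tmsb4x, Tmsb10 and Dbn1.

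Within WT alone, 5 of the 10 genes were called higher in TRAP (11.8% of all genes), and within KO alone 5 (13.2% of all genes). In both genotypes these were Actb, Actg1, Cfl1, Pfn1 and Arpc2. Arpc2 was close to the threshold in WT (adjusted p = 0.0495, edgeR) and missed it under 6 of 9 other settings, DESeq2 among them. In WT the count fell to 3 without pool 2 and to 1, Actg1, without pool 3. In KO it fell to 3 without pool 2 and to 2 without pool 4, where Actb, Pfn1 and Arpc2 missed the threshold.

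The spread among pools differed between the genes as well. Within groups, the SD of log2 values was 0.09 for Cfl1 and Arpc2, 0.10 for Pfn2 and 0.11 for Actb, at the 2.5th to 5.93rd percentiles of the genes tested, whose median SD was 0.28. Pfn1 was at 0.13, Cfl2 at 0.17 and Actg1 at 0.21. The thymosins and drebrin were the most variable, with 0.30 for Tmsb4x and 0.25 for Tmsb10 and Dbn1, close to the median gene. Tmsb4x had 3324 to 5579 counts a library.

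Since 4 pairs of related genes were measured in the same libraries, the ratio of counts within a pair needs no scaling between libraries. It is a ratio of counted reads and not of isoform levels. Reads with several alignments are left out, and their share differs between the genes of a pair by an unknown amount. For each Actb count there were 0.141 to 0.172 Actg1 counts in TRAP and 0.0814 to 0.136 in input, with no overlap. The log2 ratio was higher in TRAP in 6 of 6 pools, by 0.55 ± 0.30 (SD, n = 6 pools, exact sign-flip test p = 0.031, 0.0417 after Benjamini-Hochberg adjustment over 4 pairs). Of the 10 genes, Actg1 had the largest share of stretches with other places, and the part of reads without a unique place in this ratio was not tested.

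The Cfl2 to Cfl1 ratio was 0.0243 to 0.0316 in TRAP and 0.0382 to 0.0554 in input. It was lower in TRAP in all 6 pools, and the log2 ratio fell by 0.66 ± 0.27 (SD, n = 6, exact sign-flip test p = 0.031, adjusted p = 0.0417). The Tmsb10 to Tmsb4x ratio was 0.0492 to 0.102 in TRAP and 0.0776 to 0.107 in input, overlapping between pools. Within each pool it was lower in TRAP, and the log2 ratio fell by 0.41 ± 0.26 (SD, n = 6, exact sign-flip test p = 0.031, adjusted p = 0.0417). Both thymosins varied widely between pools without a call, and the ratio compares them within the same library. With pseudogene counts added, the log2 differences were 0.58 for Actg1/Actb, −0.66 for Cfl2/Cfl1 and −0.43 for Tmsb10/Tmsb4x. The exact p of Tmsb10/Tmsb4x became 0.0625, and with it the adjusted p of the other two rose to 0.0625, although their own exact p was still the smallest possible.

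The profilin pair behaved differently. There were 2.98 to 3.68 Pfn2 counts per Pfn1 count in TRAP and 3.12 to 4.30 in input. The ratio was lower in TRAP in 4 of 6 pools, with a mean log2 difference of −0.20 ± 0.25 (SD, n = 6, exact sign-flip test p = 0.125). Between KO and WT, with 3 pools each, the smallest exact permutation p is 0.10, so that this test could make no call. Tmsb10/Tmsb4x in input reached 0.10 (0.600 after adjustment over 8 comparisons), with every KO library (0.0776 to 0.0833) below every WT library (0.0875 to 0.107).

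**Figure D3:**
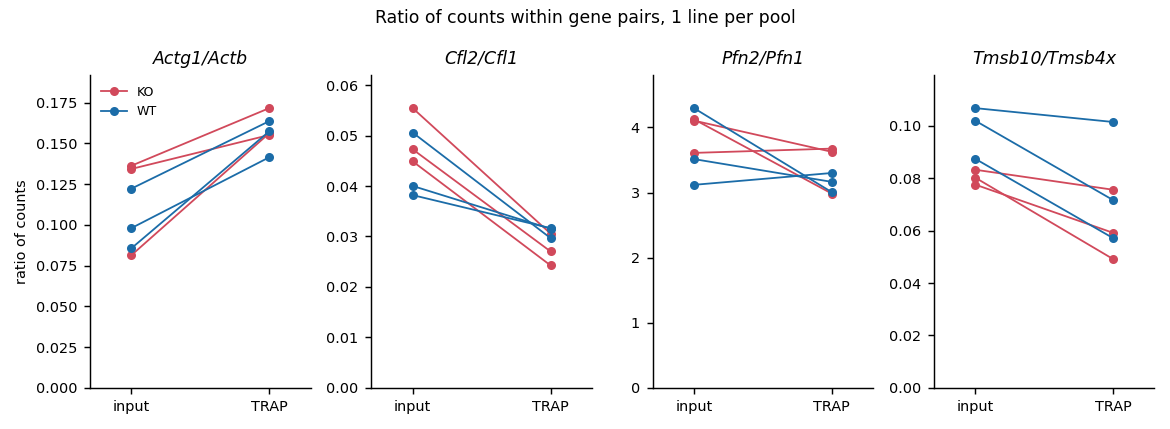
Ratio of counts within the pairs Actg1/Actb, Cfl2/Cfl1, Pfn2/Pfn1 and Tmsb10/Tmsb4x (y axes from 0), with a line for each pool joining its input and TRAP library. All lines rise for Actg1/Actb, all fall for Cfl2/Cfl1 and Tmsb10/Tmsb4x, and lines of both directions are seen for Pfn2/Pfn1.

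The next question was whether these genes differed between KO and WT mice. In TRAP, none of the 10 genes was called between KO and WT, where 8 of 11727 genes (0.0682%) were called. All 10 log2 fold changes were below 0, from −0.32 for Tmsb10 to −0.01 for Pfn2, with a median of −0.07, and over all genes 49.5% were above 0 with a median of 0.00. These values share their libraries and are not independent of each other. The signs of Pfn2 and Arpc2 turned with total counts in place of TMM. Tmsb10 and Dbn1 had an unadjusted p under 0.05, as did 6.05% of all genes.

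For Tmsb10, WT TRAP libraries were at 75, 75 and 83.9 CPM and KO TRAP libraries at 70.6, 56.3 and 61.1 CPM. The genotypes did not overlap, although the highest KO library, 2, was close to the lowest WT libraries. An exact permutation test gave p = 0.1, the smallest it allows. The log2 fold change was −0.32 (SE 0.14, unadjusted p = 0.0332, adjusted p = 0.798, edgeR). Dbn1 was at 316, 292 and 248 CPM in TRAP of WT and 225, 268 and 246 CPM in KO TRAP, with overlap. Its log2 fold change was −0.22 (SE 0.10, unadjusted p = 0.0499, adjusted p = 0.820, edgeR). Cfl2 had a log2 fold change of similar size, −0.22, with a larger SE of 0.18.

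Actb in TRAP had a log2 fold change of −0.09 in KO (SE 0.08, adjusted p = 0.916, edgeR). Its TRAP libraries of KO lay between 2416 and 2953 CPM and those of WT between 2680.4 and 3121 CPM. Actg1 was at −0.03 (SE 0.09) and Cfl1 at −0.05 (SE 0.08) in TRAP. KO TRAP library 2, where the GABA neuron markers were highest, had the lowest summed level of glutamate neuron markers (8057 CPM, against 8767 to 9602 CPM in the other TRAP libraries). It also had the lowest Actb, Cfl2, Pfn2, Arpc2 and Dbn1 levels among TRAP libraries, and the part of the markers in these values was not tested. Without KO pool 2, still none of the 10 genes was called.

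In input, none of the 10 genes was called between KO and WT (4 of 12816 genes were called, 0.03121%), and the log2 fold changes ran from −0.27 to 0.15. The difference of the KO effect between TRAP and input was called for none of the 10 genes (1 of 13214 genes, 0.00757%) and ran from −0.33 to 0.04. No gene of the 10 had an unadjusted p under 0.05 in input or for that difference, by edgeR's quasi-likelihood test. With DESeq2 also, no call was made for them in these 3 comparisons. The SEs in TRAP, 0.08 to 0.24 on the log2 scale, set the size of a change that could have been seen.

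**Figure D4:**
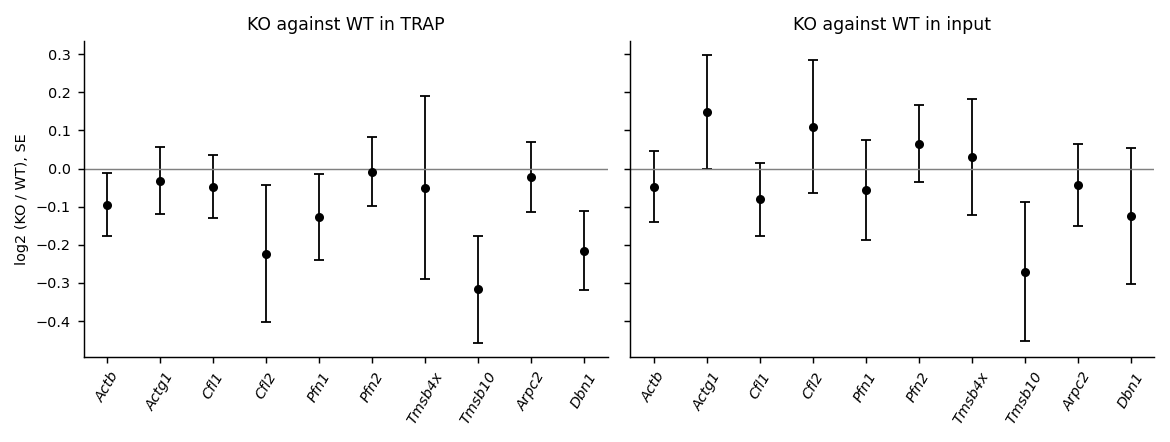
edgeR log2 fold change of KO against WT for each gene, with its SE, in TRAP (left) and input (right). In TRAP all 10 points lie below 0, with Tmsb10 the lowest, and none was called. In input the points lie on both sides of 0.

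The 10 genes were then set among 108 further genes of the actin cytoskeleton, listed by role. Of the 102 tested, 41 were called higher in TRAP and 35 lower (20.1% and 22.7% of all genes tested), and 26 were not called. Their median log2 fold change was 0.04. None of them was called between KO and WT in TRAP, where 95 were tested, or in input. For TRAP against input, 38.2% of the 5213 genes with a mean CPM of at least that of Cfl2 were called higher. Of these 5213 genes, 57.0% were called in either direction. The shares given here are also the background for the counts of each list below, and no list was tested as a set.

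Of the muscle actins, Acta1, skeletal actin, was at 13.6 ± 2.45 CPM in WT TRAP and 8.63 ± 1.26 CPM in WT input (SD, n = 3 each), and rose over both genotypes by 0.82 on the log2 scale (adjusted p = 0.00250, edgeR). Acta2, the actin of smooth muscle, was at 1.91 ± 1.22 and 5.63 ± 2.83 CPM and had a log2 fold change of −1.98 over both genotypes (adjusted p = 0.000118). Neither was called within WT alone, where the log2 fold changes were 0.65 for Acta1 and −1.49 for Acta2, and both were called within KO (0.99 and −2.45). Acta2 marks mural cells of vessels. The summed level of 10 endothelial and mural markers was 23.7 to 38.8 CPM in TRAP and 55.3 to 93.6 CPM in input, 4 of the 6 tested were lower, and 3 were at 0 in WT TRAP and 2 in KO TRAP.

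In the Arp2/3 complex, 5 of 9 other subunits were higher, 1 was lower and 3 were not called. Arpc1a (log2 fold change 0.63, SE 0.09) and Arpc3 (0.39, SE 0.07) rose, as Arpc2 did, while Arpc1b, the alternative to Arpc1a known from blood cells, fell (−2.08, SE 0.35). Among 11 activators tested, 4 rose and 4 fell. Wasf1, the WAVE protein of brain, was at 925 ± 74.9 CPM in WT TRAP and 541 ± 2.82 CPM in WT input (log2 fold change 0.71, SE 0.06, adjusted p = 3.57e-10, edgeR). Brk1, a small WAVE subunit listed under 6720456B07Rik, rose by 0.60. Wasf2 (−1.37) and Cyfip1 (−0.51) fell.

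Genes that act with the cofilins on filament turnover rose in 6 cases of 12 and fell in 2. Cap2, which recycles cofilin-bound actin, had the largest rise of the pathway (log2 fold change 0.94, SE 0.07, adjusted p = 2.31e-11, edgeR), from 172 ± 5.25 CPM in WT input to 340.2 ± 36.3 CPM in WT TRAP. Pdxp, a phosphatase that activates cofilin, rose by 0.78. Limk1, the kinase that inactivates cofilin, fell (−0.80, SE 0.13), and so did Ssh2, another cofilin phosphatase (−0.64, SE 0.09).

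Formins and Ena/VASP proteins, which elongate unbranched filaments, fell in 8 cases of 13 and rose in 1, with a median log2 fold change of −0.52. Daam2 had the lowest value of the pathway (−3.39, SE 0.16), at 7.08 ± 0.873 CPM in WT TRAP and 61.4 ± 6.47 CPM in WT input. Fmn1 fell as well (−2.45, SE 0.16), and Fmnl1 rose (0.37, SE 0.08). Among capping and severing proteins, 4 of 13 rose, with Twf2 (0.79) and Add1 (0.36) first by p, and 6 fell, with Eps8 (−1.29) and gelsolin, Gsn (−1.02), first. Of 17 bundling, crosslinking and spine proteins, 5 rose and 9 fell. The fascin Fscn1 (0.71) and the plastin Pls3 (0.60) rose. The brain spectrins Sptan1 and Sptbn1, listed as Spna2 and Spnb2, fell by 1.08 and 1.16 on the log2 scale.

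Of 10 coronins and tropomyosins, which stabilise filaments or clear old ones, 7 rose and 2 fell. Coro1a (0.73) and Tpm1 (0.42) were the first among the risers, while Tpm2 (−2.16) and Tpm4 (−0.93) fell. The transcription factor SRF senses free actin through its partners Mkl1 and Mkl2, and both partners rose (0.24 and 0.32). Markers of glia and vessels were lower in TRAP alongside the genes that fell here, and their part was not tested.

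**Figure D5:**
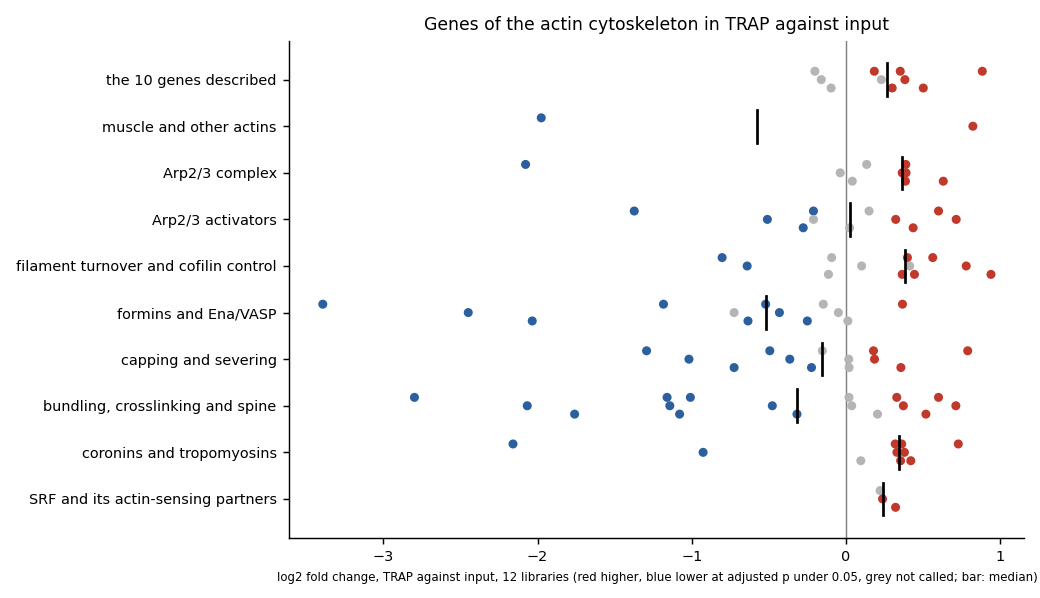
log2 fold change of TRAP against input over 12 libraries (x axis) for the 10 genes and for 9 lists of actin cytoskeleton genes (rows), with a bar at the median. Calls lie on both sides of 0 in most lists. The formin list has most of its points below 0.

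The genes whose log2 CPM followed Actb most closely over the 12 libraries were Psmd6, a proteasome subunit (Pearson's r = 0.98), Tubb2a, a neuronal beta-tubulin (0.97), Prpf4b, a splicing kinase (0.97), Capns1, the small calpain subunit (0.97), and Eif4a1, a translation initiation factor (0.97). These are the highest of 13213 values, over libraries that differ in fraction and share pools, and are given as a description. Of the 9 other genes described, Arpc2 was most like Actb (r = 0.95, rank 20), then Cfl1 (0.90), Pfn1 (0.88) and Pfn2 (0.85). Actg1 had r = 0.77. These values include the difference between fractions, and the order changed after the mean of each group was removed: Arpc2 then had 0.80, Tmsb4x 0.77, Pfn2 0.76, Pfn1 0.46, Dbn1 0.43, Cfl1 0.32, Cfl2 0.19, Tmsb10 0.12 and Actg1 −0.27.

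ΔFosB and FosB bind AP-1 sites as partners of Jun proteins, and SRF binds the CArG box, a site known from actin genes. RefSeq promoter windows of GRCm38.p6, 250 bases before to 50 bases after the start, were at hand for 9 of the 10 genes, all but Actb. The letters TGANTCA (AP-1) on either strand were in none of the 9. They were in 8.97% of all 27025 genes with a window (7.81% of all 32851 windows). TGACGTCA (CRE) was in none of the 9 and in 2.03% of all genes (1.79% of windows). A CArG box was found in 1 of the 9, Actg1, and in 1.81% of all genes (1.63% of windows). It is shown in capitals in the 250 bases before the Actg1 start (chr11:120348496-120348745, GRCm38.p6, minus strand), since Actg1 had the largest difference of the 10 genes, and lies 90 to 81 bases before the start.
Actg1 promoter: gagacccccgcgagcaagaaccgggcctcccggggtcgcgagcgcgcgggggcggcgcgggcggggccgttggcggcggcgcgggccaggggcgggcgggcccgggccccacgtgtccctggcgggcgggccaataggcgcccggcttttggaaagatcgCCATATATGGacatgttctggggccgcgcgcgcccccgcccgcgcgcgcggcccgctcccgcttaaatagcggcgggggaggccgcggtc
A match of letters is a description of the window and not a bound site.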

How the data were processed

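TRAP and input libraries of WT and KO vHPC were compared at 10 genes. The authors mapped reads to mm9 with TopHat, set aside reads with several alignments, and counted the rest on Gencode vM1 genes with HTSeq-count. The deposited counts are raw reads per gene, without normalization. Tool versions, read length and the strand setting of the counting are not given in the sources used here, so a read from the other strand cannot be told apart. The study names DESeq2 for its own tests.

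Groups were compared by edgeR 4.0.16 under R 4.3.3 (default filter by group, TMM, robust dispersion, quasi-likelihood test), with Benjamini-Hochberg adjustment over all genes of a comparison and a threshold of 0.05. The SE is the log2 fold change divided by the square root of F. TRAP was compared with input over both genotypes (genotype as covariate, 12 libraries) and within each. KO was compared with WT within TRAP and within input, and the difference of those effects was an interaction. For KO against WT within a fraction, p-values measure the spread between pools. For TRAP against input and the interaction, edgeR took the TRAP and input libraries of a pool as independent. Those edgeR p-values measure the spread among libraries within groups. Only the fit with pool as a block and the sign-flip tests used the pairing by pool. Single values used exact two-sided sign-flip tests over 6 pools or permutation tests. Pool differences used log2(CPM + 0.5), and ratios used raw counts. TRAP and input libraries of a pool are paired by the number in their titles: their deviations from group means correlated at 0.0582 to 0.106 within a pool and −0.101 to −0.00538 between pools. Deviations cancel out within a group, so positive values within a pool partly fix the sign of those between pools. The floor of 3 counts covers counting error only, and ranges over libraries or pools include the spread between pools. Lack of overlap between groups is given as a description, and its share over all genes was not counted.

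The genes, the lists and the tests were chosen with earlier results of these data known. Named genes were the 10 members, Fosb, in each actin list the 2 smallest p in each direction with an adjusted p under 0.05, the 5 genes most correlated with Actb, and genes that hold most of the other places. A list counted in the totals is not reported here. Brk1, Sptan1 and Sptbn1 were matched through RefSeq synonyms. Copies of 75-base stretches in mm9 were found by exact search with up to 2 mismatches and no gaps. The stretch length is a choice, as the read length is not given. Steps were tested on simulated data. Alternatives were RLE, total counts, no filter, a mean of at least 10 counts, no mitochondrial genome genes, DESeq2 1.42.0, a fit of all 12 libraries, pool as a block, leaving out each pool, a pseudocount of 0.5 in ratios, coding length and, added after seeing the data, pseudogene counts joined to their gene. The sign-flip test over 5 pools cannot go below 0.0625.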

Additional observations from a re-analysis of the deposited data

How the results depend on the processing

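Of the 10 genes, 6 were called higher in TRAP over both genotypes, and 5 to 6 under the alternatives. With the pool as a block, the call of no member changed, and 5871 genes were called in place of 5656. Leaving out a pool, the members called ran from 1 to 6 in WT (3 without pool 2, 1 without pool 3) and from 2 to 6 in KO (3 without pool 2, 2 without pool 4). All genes called fell from 3096 to 1289 in WT without pool 3 and from 3626 to 1982 in KO without pool 4. Between KO and WT, no member was called in TRAP, in input or for the difference of both under any alternative, while all genes called ran from 5 to 41 in TRAP (8 as reported, 41 without a filter, 18 with DESeq2, 20 without WT pool 1), from 1 to 20 in input (4 as reported, 19 without a filter, 8 with DESeq2, 20 with the number as a block, where WT and KO pools share only a number) and from 0 to 1 for the difference. The median of the members in WT was 0.40 without pool 1, in place of 0.29. Over both genotypes, alternatives gave −0.25 to −0.085 for Cfl2, 0.14 to 0.35 for Tmsb4x, −0.24 to −0.067 for Tmsb10 and −0.16 to −0.011 for Dbn1, none called. Signs of values near 0 turned: Cfl2 in TRAP against input in WT was −0.0074 without mitochondrial genome genes and −0.13 to 0.15 leaving out a pool, Tmsb10 −0.28 to 0.014 in WT and −0.37 to 0.054 in KO, and Dbn1 −0.19 to 0.032 in WT. For KO against WT in TRAP, Pfn2 was 0.022 and Arpc2 0.0093 with total counts, and leaving out a pool gave −0.12 to 0.0039 for Cfl1, −0.065 to 0.056 for Pfn2, −0.26 to 0.12 for Tmsb4x and −0.055 to 0.036 for Arpc2. With pseudogene counts joined, chosen after seeing the data, log2 ratio differences of 0.58 for Actg1/Actb, −0.66 for Cfl2/Cfl1 and −0.43 for Tmsb10/Tmsb4x missed the adjusted threshold. Leaving out a pool they ran from 0.47 to 0.62, from −0.73 to −0.61 and from −0.47 to −0.35, and missed it too, as 5 pools allow no p below 0.0625. The cause of these changes was not tested otherwise. Depth limits Cfl2 most, with 100 to 203 counts a library, and reads without a unique place limit Actg1, Cfl1 and Tmsb10.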
